A study of Mus musculus with 6 samples.

Results

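The Chd family of chromatin remodelers was followed in N2a cells, a mouse neuroblastoma cell line, after knockdown of the circular RNA circRtn4. The members were taken by gene name, Chd1 to Chd9, and all 9 were found among the 54532 genes listed in the deposited table. RNA was sequenced from 3 libraries of cells transfected with si-NC, a negative control siRNA, and 3 libraries of cells transfected with si-circRtn4, an siRNA against circRtn4. The sample labels give N2a cells of strain C57BL/6 in MEM growth medium with serum for both groups, and no treatment other than the siRNA. The study's general methods describe induced differentiation with retinoic acid for N2a cells, and the labels do not say whether it was applied to these libraries. N2a is 1 cell line, so the groups hold no animals of different origin, and the labels do not say whether the libraries of a group came from separate cultures. The p-values therefore measure the spread between these libraries, which may be technical.

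Chd proteins carry a pair of chromodomains, which read histone tails, and an SNF2-type ATPase motor, which slides, spaces or evicts nucleosomes. Chd1 and Chd2 follow transcribed genes. Chd3, Chd4 and Chd5 are the alternative ATPases of the nucleosome remodeling and deacetylase complex NuRD, and Chd6 to Chd9 share BRK domains and include Chd7, mutated in CHARGE syndrome, and Chd8, mutated in autism. Chd5 is the member most restricted to neurons and testis, and human CHD5 is a tumor suppressor in a chromosome region often deleted in neuroblastoma.

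Chd5 was the only member that fell with the knockdown at the threshold of the test, to 36.9% of its si-NC mean. The other 8 members were at 81.8% (Chd3) to 111% (Chd1) of their si-NC means. None of these 8 passed, although Chd3 did in the fit that pairs same-numbered libraries. Chd5 lay below its closest paralogs, Chd3 and Chd4, in every library of both groups, and its distance from them was greater in each of the 3 si-circRtn4 libraries. Its 3′ UTR was the only one of the 9 with an 8-base site for miR-24-3p, the microRNA that the study links to circRtn4. The study picked CHD5 by a luciferase reporter screen of predicted miR-24-3p targets that were lower in this same sequencing. A fall and a predicted site were thus conditions of that choice, and the site is no independent support.

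The sequences behind the statement on the site are the microRNA, the siRNA and the Chd5 sites they can pair with. The mature microRNA is from RefSeq (GRCm38.p6), where 2 genes encode it, at chr8:84208875-84208896 and chr13:63301251-63301272, both on the plus strand. Capitals mark its seed, bases 2 to 8. The siRNA is printed as the study lists it, and capitals mark the bases that pair with bases 2 to 8 of its guide strand. The strand opposite to the listed one was assumed to be the guide. In the Chd5 sites, capitals mark the match.
miR-24-3p: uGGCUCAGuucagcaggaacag
si-circRtn4: cttcagatgagACCCTTTt
Chd5 8-base site of miR-24-3p: ctcctttccagCTGAGCCAagccacctgcc
Chd5 site of miR-24-3p without the base opposite position 8: ggggccacctgTGAGCCAgggttccctccc
Chd5 7-base site of the siRNA guide: tgttttaataaACCCTTTgggaagggatgg

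Expression was deposited as FPKM, fragments counted per gene after scaling to gene length and sequencing depth. The FPKM values turned back into whole reads, 14100818 to 14748929 per si-NC library and 13541198 to 15122063 per si-circRtn4 library. The 9 members held 526 to 7915 of these reads each per library, so none was near the detection limit. Rtn4, the host gene of the circular RNA, was at 61.0, 66.8 and 69.8 FPKM with si-NC and at 50.1, 56.7 and 62.7 FPKM with si-circRtn4. These groups overlapped (log2 fold change -0.22, adjusted p = 0.216), and the paired fit placed Rtn4 past the threshold (adjusted p = 0.0447). A gene-level FPKM does not separate the circular from the linear transcript, so the knockdown itself was not measured here. By qRT-PCR in N2a cells, the study reports an efficient knockdown of circRtn4 and no significant change of linear Rtn4. A small noncoding RNA gene, Gm23935, took 20.1 to 20.7% of the summed FPKM with si-NC and 13.5 to 18.8% with si-circRtn4. With this gene left out of TPM-scaled values, the log2 fold change of Chd5 was -1.34 (adjusted p = 0.00150), and it was the only member called.

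Differences between groups were tested with limma on log2(FPKM + 1) over the 12749 genes that averaged 1 FPKM or more, with Benjamini-Hochberg adjustment over all of them. A log2 fold change is si-circRtn4 minus si-NC on this scale, which understates the change of genes with low values. All 9 members were tested. At an adjusted p under 0.05, which 9.19% of all genes reached, 1 of the 9 was lower and 0 were higher, where 4.82% of all genes tested were lower and 4.36% were higher. The single lower member is Chd5, so the count says nothing about the other 8. The number of genes called, 1171 with all libraries, was smaller when 1 library was left out. It was 380 and 661 without replicates 2 and 3 of si-NC, and 534, 488 and 732 without replicates 1, 2 and 3 of si-circRtn4. Of the 1171 genes, 47.5% were higher, against 71.2% of 1365 genes when the values were scaled to TPM, which raised the median of all genes to 0.09 on the log2 scale. With Gm23935 left out of the TPM values, 52.4% of 1130 genes called were higher, and the median was 0.02. In the paired fit, where the replicate number is a block, 2 of the 9 members were lower, Chd5 and Chd3, where 9.75% of all genes were.

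The NuRD branch held the largest and the next largest change of the family, those of Chd5 and Chd3. Chd5 (chr4:152338651-152390194, plus strand, GRCm38) had FPKM values of 11.8, 9.83 and 9.52 with si-NC, against 3.99, 3.53 and 3.97 with si-circRtn4. The lowest si-NC library was more than double any si-circRtn4 library, and si-NC replicate 1 stood above the other two of its group. The mean went from 10.4 ± 1.22 to 3.83 ± 0.262 FPKM (SD, n = 3). This was -1.23 on the log2 scale (SE 0.0978, interval -1.46 to -1.004, adjusted p = 0.00139). Within same-numbered libraries the si-circRtn4 value was 33.9%, 35.9% and 41.7% of the si-NC value. Only 0.369% of the genes tested had a lower log2 fold change, which placed Chd5 at rank 48 of 12749. The 1702, 1358 and 1277 reads with si-NC stood against 544, 526 and 553 reads with si-circRtn4, so counting error was small beside the difference. Alternative fits, 14 in all, gave log2 fold changes of -1.41 to -1.15 with an adjusted p of at most 0.0132. An exact two-sided permutation test of the 3 against 3 libraries gave p = 0.1, the smallest it can give.

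Chd3 (chr11:69343273-69369406, minus strand), an alternative ATPase of NuRD, was at 24.2, 24.9 and 24.4 FPKM with si-NC. With si-circRtn4 it was at 18.8, 20.4 and 20.9 FPKM. The groups did not overlap, and the si-NC libraries lay close together. The log2 fold change was -0.28 (SE 0.0707, interval -0.44 to -0.11), with an adjusted p of 0.0512, just outside the threshold. Chd3 passed in the paired fit (adjusted p = 0.0267), with limma-voom on the recovered reads (0.0365, where 5.69% of all genes were lower), and after median-ratio (0.0452) or quantile scaling (0.0458). It missed the threshold whenever any 1 library was left out, with adjusted p from 0.0844 to 0.168. Chd4 (chr6:125095981-125130591, plus strand), the usual ATPase of NuRD in proliferating cells, had by far the highest level of the family. It was at 62.2, 68.5 and 66.2 FPKM with si-NC and at 57.9, 58.0 and 66.9 FPKM with si-circRtn4. One si-circRtn4 library, replicate 3, lay inside the si-NC range, and the log2 fold change was -0.11 (SE 0.0847, interval -0.30 to 0.09, adjusted p = 0.479).

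**Figure D1:**
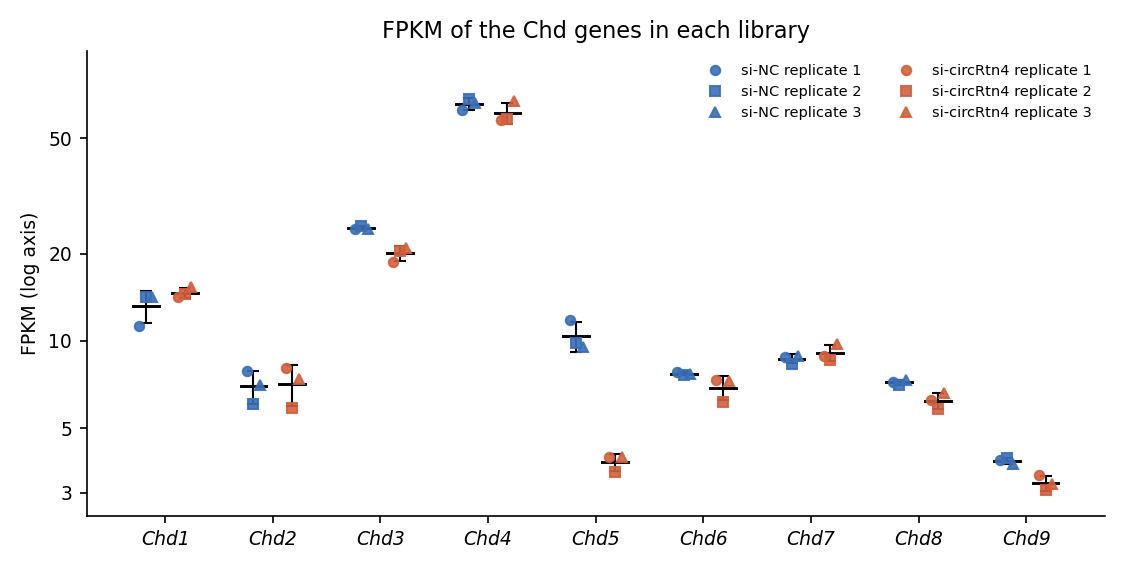
FPKM (log axis) of the 9 Chd members in each library, with si-NC and si-circRtn4 side by side and the group mean ± SD. Chd5 drops from 10.4 to 3.83 FPKM with no overlap, while Chd4 stays the highest member at 65.6 and 60.9 FPKM.

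Chd1 (chr17:15704967-15772610, plus strand), which spaces nucleosomes behind the RNA polymerase, was at 11.3, 14.2 and 14.2 FPKM with si-NC. With si-circRtn4 it was at 14.2, 14.6 and 15.3 FPKM. The group ranges met, and si-NC replicate 1, the library in which Chd5 was highest, was the one in which Chd1 was lowest. The log2 fold change was 0.15 (SE 0.0997, interval -0.08 to 0.38, adjusted p = 0.403). Chd2 (chr7:73426638-73541830, minus strand), a remodeler whose loss in people causes epilepsy, was at 7.88, 6.05 and 7.03 FPKM with si-NC and at 8.10, 5.86 and 7.41 FPKM with si-circRtn4. Its values followed the replicate number more than the siRNA: replicate 1 was highest and replicate 2 lowest in both groups. Same-numbered libraries were at 103%, 96.9% and 105% of each other, and the log2 fold change of 0.02 (SE 0.13, interval -0.28 to 0.32) had an adjusted p of 0.945 and turned negative when si-NC replicate 2 (-0.07) or si-circRtn4 replicate 1 (-0.07) or 3 (-0.0091) was left out.

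Among Chd6 to Chd9 the changes were small. Chd6 (chr2:160946978-161109075, minus strand), a little-studied member, was at 7.83, 7.63 and 7.69 FPKM with si-NC and at 7.31, 6.15 and 7.27 FPKM with si-circRtn4. Replicate 2 was the low library of the second group, and the groups did not overlap (log2 fold change -0.14, SE 0.0837, adjusted p = 0.332). Chd7 (chr4:8690406-8867659, plus strand), which acts at enhancers of neural crest cells, was at 8.80, 8.34 and 8.90 FPKM with si-NC and at 8.91, 8.62 and 9.74 FPKM with si-circRtn4. The ranges overlapped, and the log2 fold change of 0.06 (SE 0.0752, interval -0.12 to 0.23, adjusted p = 0.683) did not pass.

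Chd8 (chr14:52198151-52257780, minus strand), a regulator of Wnt target genes, was at 7.25, 7.06 and 7.35 FPKM with si-NC. It was at 6.24, 5.81 and 6.62 FPKM with si-circRtn4, with no overlap. The log2 fold change was -0.19 (SE 0.0754, interval -0.36 to -0.01), and neither the unpaired fit (adjusted p = 0.170) nor the paired fit (0.0923) placed Chd8 past the threshold. Chd9 (chr8:90828352-91054516, plus strand), first described in bone-forming cells, was at 3.90, 3.94 and 3.76 FPKM with si-NC and at 3.45, 3.06 and 3.21 FPKM with si-circRtn4. Here too every si-circRtn4 library was below every si-NC library (log2 fold change -0.20, SE 0.0837, adjusted p = 0.185; 0.133 in the paired fit).

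**Figure D2:**
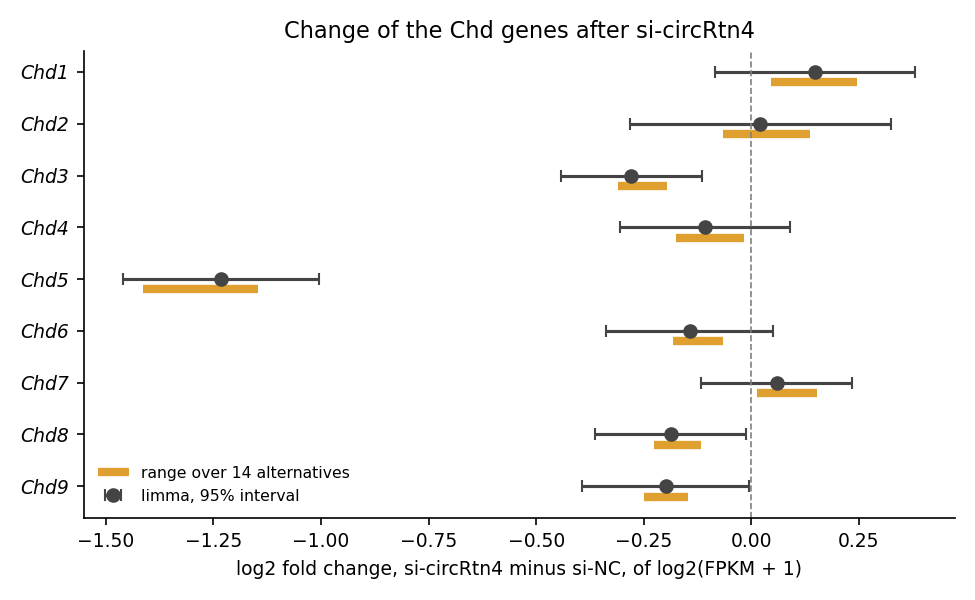
Log2 fold change (si-circRtn4 minus si-NC, log2(FPKM + 1) scale) of each member, with its interval and the range over 14 alternative fits. Chd5 stands at -1.23, apart from the other 8 members, which lie between -0.28 and 0.15.

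In the deposited FPKM, the members Chd3, Chd5, Chd6, Chd8 and Chd9 thus had all si-circRtn4 libraries below all si-NC libraries. That is 5 of 9, where 15.5% of all genes tested had such groups in the lower direction, and 0 of 9 members against 16.2% of genes in the higher direction. After scaling to TPM their log2 fold changes were -0.19 (Chd3), -1.26 (Chd5), -0.07 (Chd6), -0.12 (Chd8) and -0.15 (Chd9). The count of non-overlapping groups was not repeated on that scale, so it holds for FPKM only. Of the 9, 4 had an unadjusted p under 0.05 and a lower mean, against 12.8% of all genes. A log2 fold change below 0 was found for 6 members and for 49.6% of all genes. The median over the members was -0.14, and -0.13 without Chd5, beside 0.002 for all genes tested. These counts describe the family, and no test over the list was made. The exact permutation p of each non-overlapping member was 0.1, which 3 against 3 libraries cannot go below.

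Levels can be compared between members per length. In the si-NC group the order of mean FPKM was Chd4, Chd3, Chd1, Chd5, Chd7, Chd6, Chd8, Chd2 and Chd9. The libraries of neighbors in this order overlapped for Chd1 with Chd5 and for Chd8 with Chd2, and for no other pair. In the si-circRtn4 group the order was Chd4, Chd3, Chd1, Chd7, Chd2, Chd6, Chd8, Chd5 and Chd9, with overlap of Chd2 with Chd6 and of Chd6 with Chd8. Chd5 thus went from 4th to 8th, and the places of Chd4, Chd3 and Chd1 at the top and of Chd9 at the bottom were the same in both groups.

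The place of Chd5 among its paralogs depended on the length used. The deposited gene length equaled the union of all annotated exons for 9 of 9 members, and this union was 1.01 (Chd5) to 1.94 (Chd8) times as long as the annotated transcript with the longest 3′ UTR. Per kilobase of that single transcript, Chd5 was at 10.5 ± 1.23 with si-NC, 8th of 9 and above only Chd9 at 7.45. With si-circRtn4 it was at 3.87 ± 0.265, the lowest of the 9, below Chd9 at 6.25. Chd4 (78.6 and 73.0) and Chd3 (28.5 and 23.3) led the order on this scale too. The ratio of a gene's FPKM between groups does not depend on its length. The change of log2(FPKM + 1) does, through the 1 added to each value.

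The change of Chd5 against its paralogs was measured within each library. Chd5 minus the mean of the other 8 members, in log2(FPKM + 1), was 0.03, -0.21 and -0.28 with si-NC and -1.26, -1.31 and -1.33 with si-circRtn4. On the deposited FPKM scale, Chd5 was thus near the mean of the other members in the si-NC libraries. It was far below that mean in all si-circRtn4 libraries. Per kilobase of a single transcript Chd5 was already 8th of 9 with si-NC, so its nearness to the mean depended on the length used. The mean difference fell from -0.16 ± 0.161 to -1.30 ± 0.0331 (SD, n = 3), by -1.15 (exact two-sided permutation test, p = 0.1, the smallest possible). Against Chd3 and Chd4 alone the values were -1.65, -1.97 and -1.97 with si-NC and -2.77, -2.97 and -2.96 with si-circRtn4. This difference of -1.04 also came from groups that did not overlap (exact permutation p = 0.1).

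Chd3, Chd4 and Chd5 take the same place in NuRD, so the share of each in their summed FPKM was computed. Chd5 made up 11.98%, 9.52% and 9.51% of the sum with si-NC and 4.95%, 4.30% and 4.32% with si-circRtn4. The mean share went from 10.3% ± 1.42 to 4.52% ± 0.369, with no overlap (exact permutation p = 0.1), and from 8.93% ± 1.25 to 3.87% ± 0.317 per kilobase of transcript. The share of Chd4 was 65.3% ± 1.67 with si-NC and 71.8% ± 1.04 with si-circRtn4, again with no overlap. These shares are parts of the same sum, and the FPKM of Chd4 itself was not higher with si-circRtn4 (means of 65.6 and 60.9). The share of Chd3 was 24.4% and 23.7%, and its groups overlapped (exact permutation p = 0.4). Chd4 therefore held the larger part of the RNA of these ATPases in every library, and Chd5 a part that was smaller after knockdown. In RNA from a whole culture, fewer cells that express Chd5 and less Chd5 RNA per cell cannot be told apart.

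**Figure D3:**
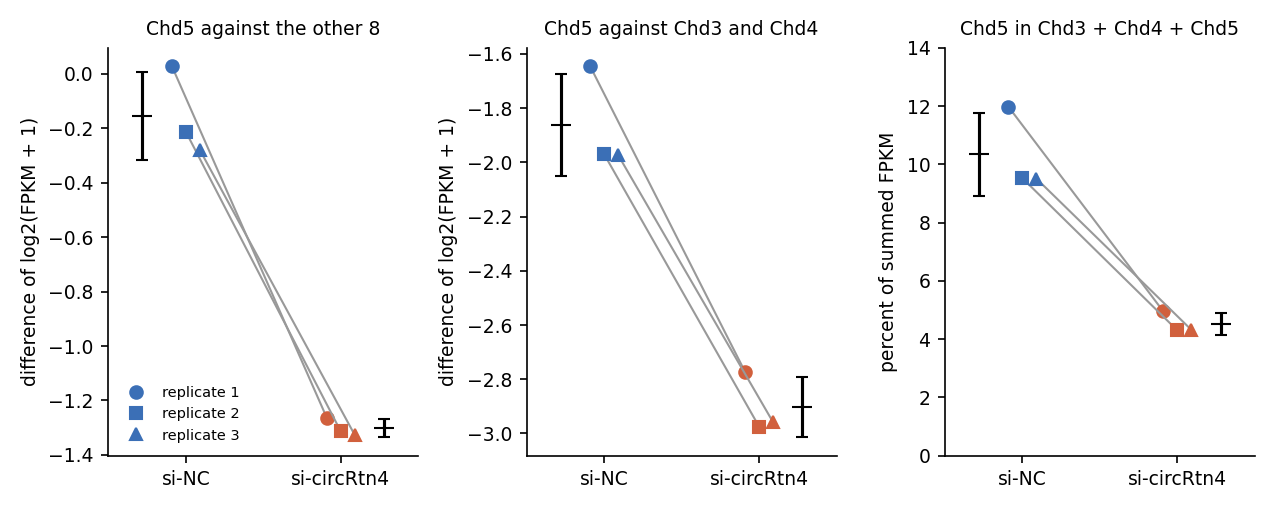
Chd5 in each library relative to the other 8 members and to Chd3 and Chd4 (differences of log2(FPKM + 1)), and as a percent of the summed FPKM of Chd3, Chd4 and Chd5. Lines join same-numbered libraries and bars give the mean ± SD, and all 3 lines fall in each panel, in the last from 10.3% to 4.52% on average.

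The summed FPKM of the family was 145, 150 and 149 with si-NC and 129, 126 and 141 with si-circRtn4. The groups did not overlap (148.2 ± 2.70 and 132.1 ± 8.17, exact permutation p = 0.1), but this did not hold after scaling to TPM (exact permutation p = 0.4). Without Chd5 the sums were 137.8 ± 3.85 and 128.2 ± 8.02, and si-circRtn4 replicate 3 lay within the si-NC range (exact permutation p = 0.2). Chd4 alone made up 44.3% of the family sum with si-NC and 46.1% with si-circRtn4.

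Sites were searched for in the annotated transcript of each member with the longest 3′ UTR (GENCODE M21, GRCm38). For miR-24-3p the motifs were CTGAGCC, its extension CTGAGCCA, and TGAGCCA, which overlaps both. For the siRNA guide they were ACCCTTT, ACCCTTTA and CCCTTTA, and only the transcript strand was read. Chd5 had the longest 3′ UTR of the family, 3326 bases, where the median over the 10688 genes searched was 1170. The other members had 3029 (Chd2), 2544 (Chd9), 2322 (Chd6), 2287 (Chd1), 1078 (Chd3), 1004 (Chd7), 590 (Chd4) and 441 (Chd8) bases. The members thus differed relatively more in the length of the 3′ UTR than in that of the coding sequence, which ran from 5133 (Chd1) to 8958 (Chd7) bases over 36 to 42 exons.

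The 8-base site of Chd5 printed above starts 42 bases after the stop codon. It spans a splice junction in the 3′ UTR, so that its bases lie between chr4:152385998 and chr4:152386917 on the plus strand. The other printed site of miR-24-3p is at chr4:152389361-152389367, in the last part of the same 3′ UTR. Of the other members, only Chd2 had a site of this microRNA in its 3′ UTR, a 7-base site 90 bases after the stop codon (chr7:73429571-73429577, minus strand) and a TGAGCCA site at 1860 bases. The 7-base site was thus in 2 of 9 members, where 19.6% of the 10688 genes had it. The 8-base site was in 1 of 9, against 8.73%, and the remaining 7 members had none of the 3 motifs in the 3′ UTR. Chd2, which has the 7-base site, had a log2 fold change of 0.02. In coding sequence the 7-base site was found in 5 members: Chd4, Chd5, Chd6, Chd7 and Chd9.

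The siRNA guide also had a 7-base match in the Chd5 3′ UTR, at chr4:152390167-152390173, 21 bases before the annotated end of the transcript. No other member had one there, and 12.5% of the genes searched did. The 8-base match was in no 3′ UTR of the family, beside 2.48% of genes. In coding sequence, 5 members had the 7-base match, and Chd9 had 3 of them, 2 with the 8th base. Both kinds of site thus stand in the same Chd5 3′ UTR, and Chd5 is the only one of the 9 with both. A match of letters is a description. The study reports that a mimic of the microRNA lowered the activity of a luciferase reporter containing CHD5 sequence, in another cell line. Its figure legend names reporters of CHD5 site1 and site2, and its text does not say whether these held the sites printed above. In the libraries used here, whether the microRNA or the siRNA acted through either site was not tested. The 2 kinds of site cannot be told apart in this design.

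**Figure D4:**
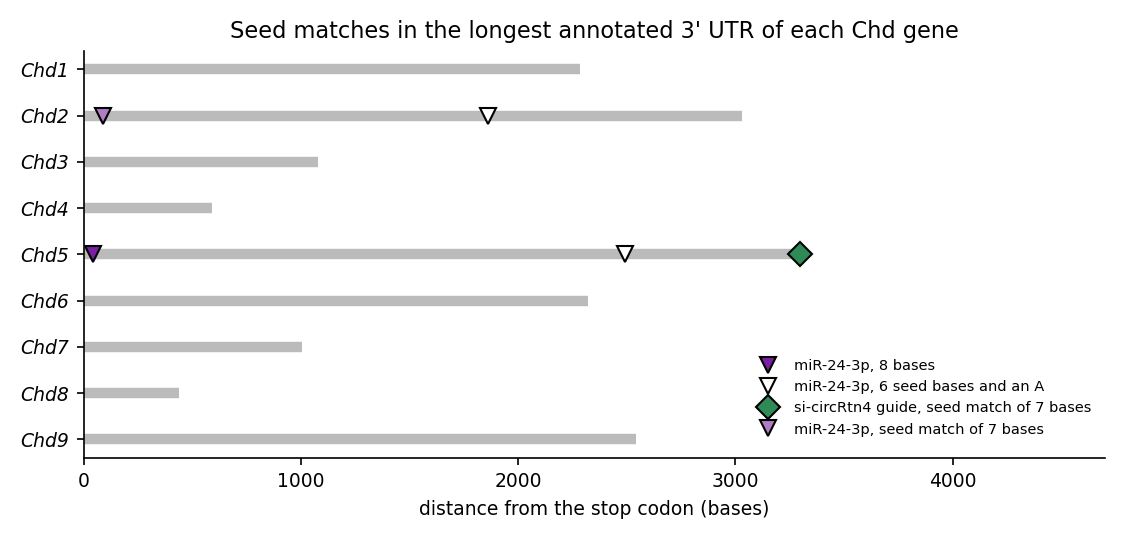
Length of the 3′ UTR of each member (bases after the stop codon) with the matches to miR-24-3p and to the siRNA guide. Chd5 has the longest 3′ UTR at 3326 bases, the only 8-base match of miR-24-3p and the only match of the guide.

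Reads could be shared between near-identical sequences, and this was checked over windows of 50 bases in the same transcripts. No window of any member was found in a transcript of another member. Windows shared with other genes were 6.12% for Chd8, 5.97% for Chd2, 1.07% for Chd6, 0.572% for Chd5, 0.527% for Chd9 and 0% for Chd1, Chd3, Chd4 and Chd7. For Chd5 these were 54 windows in common with Gm13645, which overlaps it on the other strand. Gm13645 was at 0.489 FPKM with si-NC and at 0.225 FPKM with si-circRtn4, too low to be tested and far below Chd5. The counting is not stated to use strand, so reads of a gene and of an overlapping gene on the other strand cannot be told apart.

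The genomic neighbors of Chd5 did not pass the test. Rpl22, a ribosomal protein gene 4579 bases away, had means of 169.8 and 167.3 FPKM with si-NC and si-circRtn4 (log2 fold change -0.03, adjusted p = 0.895). Kcnab2, a potassium channel subunit gene 547 bases away on the other strand, had means of 12.8 and 11.2 FPKM (-0.17, adjusted p = 0.216). Every si-circRtn4 library of Kcnab2 was below every si-NC library, as for 15.5% of all genes tested. Over the family, 18 nearest tested genes were examined, and 0 were lower and 2 higher, where 4.82% and 4.36% of all genes were. The higher ones were Rab2a beside Chd7, a vesicle traffic GTPase (49.8 and 75.3 FPKM, log2 fold change 0.58, adjusted p = 0.0115), and Gm11451, 1789818 bases from Chd6 (9.11 and 14.9 FPKM, 0.66, adjusted p = 0.0368). Of the 16 genes that overlap 7 of the members, 5 were tested and none passed (limma). They include 1810026B05Rik, a long noncoding RNA gene that overlaps Chd2 (2.38 and 2.75 FPKM, 0.15, adjusted p = 0.363), and Snord8 within Chd8 (1.89 and 0.612 FPKM, -0.85, adjusted p = 0.176). The values of Snord8 rest on only 0 to 5 reads per library.

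NuRD joins a Chd ATPase to histone deacetylases and to Mta, Mbd, Gatad2 and Rbbp subunits. Of its 12 subunits outside the Chd family, all tested, 0 were lower and 0 higher, where 4.82% and 4.36% of all genes were. A count of 0 in a list of this size is near those shares and does not set the list apart. At an unadjusted p under 0.05 there was 1 subunit (limma). Their median log2 fold change was -0.004, with 6 below 0 and 6 above. Cdk2ap1, a small subunit, was at 22.1, 24.4 and 19.9 FPKM with si-NC and at 15.3, 20.04 and 16.8 FPKM with si-circRtn4. These groups overlapped (log2 fold change -0.34, adjusted p = 0.1198), and the paired fit placed Cdk2ap1 past the threshold (0.0310). Rbbp7, a histone-binding subunit, had a log2 fold change of -0.21 (adjusted p = 0.336). No subunit came near the change of Chd5, the range over the 12 being -0.34 to 0.17. Few genes of any kind did, since 0.369% of the genes tested lay below Chd5.

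The other chromatin lists gave the same counts. Of 23 further SNF2-family ATPases, 21 were tested, since Smarca1 and Srcap were under 1 FPKM. None passed in either direction, where 9.19% of all genes did. At an unadjusted p under 0.05 there were also 0 (limma), and the median was -0.07. Hells, which remodels heterochromatin, was at 8.24, 14.6 and 13.2 FPKM with si-NC and at 9.20, 10.7 and 9.75 FPKM with si-circRtn4 (log2 fold change -0.23, adjusted p = 0.494). Its lowest library was si-NC replicate 1, and without that library Hells was past the threshold, the only case in which 1 ATPase of this list was. Ercc6, a DNA repair ATPase, had a log2 fold change of 0.16 (adjusted p = 0.282).

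Chd4 also works outside NuRD with Adnp and HP1 proteins in the ChAHP complex. Of 6 such genes, 0 passed, where 9.19% of all genes did (1 at an unadjusted p under 0.05, limma), and the median was 0.005. Adnp2, an Adnp paralog, was at 11.9, 11.1 and 10.0 FPKM with si-NC and at 14.7, 12.8 and 12.2 FPKM with si-circRtn4. The groups did not overlap (log2 fold change 0.24, adjusted p = 0.170), and the paired fit called Adnp2 higher (0.0387), as it did 9.29% of all genes. Cbx5, which encodes HP1 alpha, had a log2 fold change of -0.13 (adjusted p = 0.578). PRC2 writes the repressive methyl mark on histone H3 that Chd5 chromodomains have been described to bind. Of 9 subunits 8 were tested, without Phf19, and 0 were called, where 9.19% of all genes were. There were also 0 at an unadjusted p under 0.05 (limma), and the median was -0.04. Eed, a core PRC2 subunit, was at -0.20 (adjusted p = 0.207) and Ezh1, one of its methyltransferases, at -0.12 (adjusted p = 0.670).

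**Figure D5:**
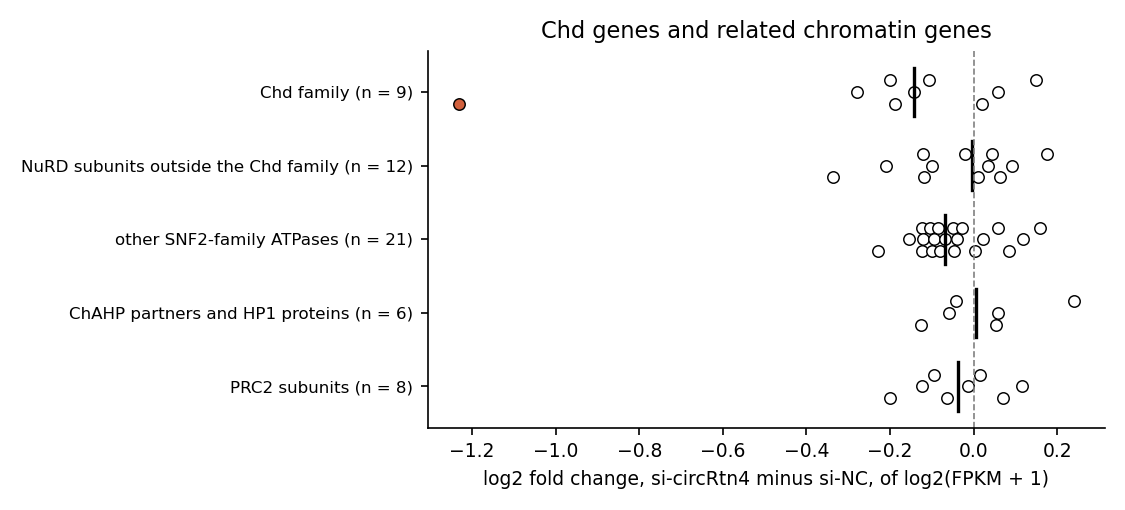
Log2 fold change of each tested gene of the Chd family and of the 4 other chromatin lists, with the median of each list as a bar and of all genes as a dashed line. Filled points have an adjusted p under 0.05, and Chd5 at -1.23 is the only one.

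The genes whose pattern over the 6 libraries was most like that of Chd5 were found by the root-mean-square difference of log2(FPKM + 1) after each gene's mean was removed, over 10782 protein-coding genes with a median difference of 0.635. The nearest was Fam210b, which encodes a mitochondrial membrane protein, at 0.0733. Its means were 10.0 FPKM with si-NC and 3.61 FPKM with si-circRtn4, close to those of Chd5 in level and change. Next came Ache, acetylcholinesterase, at a difference of 0.0910 (17.2 and 7.54 FPKM). Grap2, a signaling adaptor, was at 0.0922 (1.89 and 0.208 FPKM), and its low values make its change on this scale understated. Nrsn2, a neuronal membrane protein, was at 0.0932 (13.2 and 5.81 FPKM), and Disc1, a scaffold protein of developing neurons, at 0.0962 (12.4 and 4.67 FPKM). The other Chd members were at 0.491 (Chd3, rank 1090) to 0.717 (Chd1, rank 8511), so no paralog was among the genes most like Chd5.

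Some marker genes of the cell type moved with the groups too, while most did not pass the test. Of 12 sympathoadrenal neuroblastoma markers 11 were tested, and 3 were lower and 0 higher, where 4.82% and 4.36% of all genes were. Chga, a secretory granule protein, was among the 3 (means of 254.6 and 85.2 FPKM, log2 fold change -1.57, adjusted p = 0.000641). The others were the transcription factors Phox2a (-0.53, adjusted p = 0.0210) and Gata2 (-0.42, adjusted p = 0.0144). Of the 11, 9 had a log2 fold change below 0 and 2 above, with a median of -0.23. The summed FPKM of all 12 markers, including those that did not pass, was 1378 to 1457 with si-NC and 895 to 1205 with si-circRtn4. Mycn, the neuroblastoma oncogene, had a log2 fold change of 0.60 (adjusted p = 0.0527, and 0.00680 in the paired fit). The 5 fibroblast markers summed to 0.294 to 0.503 FPKM with si-NC and to 0.509 to 0.786 FPKM with si-circRtn4, and all 5 had means under 1 FPKM. The 6 glial markers summed to 4.85 to 5.68 and 3.67 to 5.36 FPKM with Olig2 and Aqp4 at 0 throughout. Of these 6, 5 had means under 1 FPKM. The remaining glial marker, at means of 4.12 and 3.49 FPKM, made up most of the sum. The 5 leukocyte markers summed to 0.437 to 1.32 and 0.682 to 1.24 FPKM with Cd3e at 0. The part of the neuroblastoma markers in the change of Chd5 was not tested.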

How the data were processed

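RNA sequencing of 6 N2a libraries, 3 si-NC and 3 si-circRtn4, was analyzed as grouped by the sample labels. The deposited table holds FPKM values made by the authors, with the length and GRCm38 coordinates of each gene. The submitters' processing notes name Bowtie 0.12.2 and the builds mm8 and mm9 without a role, and the counting tool is not given in the sources used here. Another 6 per-sample columns of the table were not used. FPKM multiplied by gene length gave whole reads for 100% of values (tolerance 0.01), 13541198 to 15122063 per library.

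Genes averaging 1 FPKM or more entered the test, made on log2(FPKM + 1) values using limma 3.58.1 and R 4.3.3 (eBayes with trend, Benjamini-Hochberg adjustment), with exact two-sided permutation tests for single values. The code was tested on simulated data. Intervals are 95%. The labels number the libraries and do not state a pairing. Same-numbered libraries correlated in their deviations from the group means at 0.331, 0.190 and 0.226, and others at most at 0.009. From these same values, replicate numbers were taken as pairs in a fit with a replicate block. Its values stand beside results it changed. Alternatives were limma-voom on recovered reads, other scalings, filters and pseudocounts, and leaving out each library. The members and gene lists were chosen with earlier results of these data known. Named genes are the 9 members, Rtn4, list genes past the threshold or otherwise the 2 with the largest change in each chromatin list, genes overlapping or nearest to a member, and the 5 genes most like Chd5. Of the other marker lists sums and a few values are given, and Mycn was named after its values were seen. Seed sites were searched in GENCODE M21 transcripts with Python 3.11.15. Some marker genes are not reported here.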

Additional observations from a re-analysis of the deposited data

How the results depend on the processing

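Chd5 fell under every one of 14 alternative fits. Of all recomputed values, 218 kept their direction and their side of the threshold or their size. The fit with a replicate block, which takes same-numbered libraries as pairs, called 2428 genes, 2 Chd members, 1 NuRD subunit and 1 ChAHP gene, moved Chd3 past the threshold (-0.28), and changed no other call among the members. Chd3 also passed with limma-voom on recovered reads (-0.27), median-ratio scaling (-0.28) and quantile scaling (-0.27), so that 2 members were called under each. Without the filter on low values 471 genes were called, and leaving out 1 library gave 380 to 826 genes. The log2 fold change of Chd2 ran from -0.07 to 0.14 with 1 library left out, and it was negative when si-NC replicate 2 (-0.0657) or si-circRtn4 replicate 1 (-0.0659) or 3 (-0.0091) was the one omitted. The SNF2 ATPases called numbered 0 to 1, with Hells called without si-NC replicate 1. With a pseudocount of 0.1 in place of 1, the difference of Chd5 from the other members was -1.31 and that from Chd3 and Chd4 was -1.21. The cause of these differences was not tested. The share of Chd5 per kilobase of transcript was added after the gene lengths were seen. With 3 libraries per group, exact tests cannot go below 0.1, and paired sign-flip tests cannot go below 0.25.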
